A study of Arabidopsis thaliana with 6 samples.

Results

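The comparison set 2 transgenic Arabidopsis thaliana lines together against their wild type. One line expressed FLAG-tagged SUB1A and the other FLAG-tagged SUB1C, a pair of rice ethylene response factors, each from the constitutive 35S promoter, in the Col-0 background that the wild type (WT) also had. All 6 arrays of the series were used: 4 arrays of the SUB1 lines, 2 per line, and 2 arrays of WT, described by the submitters as biological replicates. Each array held RNA of whole seedlings aged 7 d, grown at 23 °C under 16 h of light and 8 h of dark after 3 d of stratification and collected in the middle of the day, with no submergence or other stress. The labels name no empty-vector line and do not say how many independent insertions each line stands for, so the 2 lines differ from WT in carrying a transgene as well as in the protein made. No probe set read here is annotated to the rice genes, and the transgenes themselves were therefore not checked.

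SUB1A and SUB1C sit at one rice locus. SUB1A is known in rice for holding back elongation, carbohydrate use and gibberellin response when a plant is under water, and it limits growth while the plant waits for the flood to recede. SUB1C is its neighbour at that locus and is not by itself associated with submergence tolerance in rice. Both belong to a family of DNA-binding factors that in Arabidopsis also takes part in ethylene, hypoxia and stress responses. In whole seedlings, fewer cells of a type and less RNA per cell of that type cannot be told apart.

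The change of a gene is the mean of the SUB1A and SUB1C group means minus the WT mean, on the deposited log2 scale, so that 1 is a doubling and each line has equal weight. Its standard error (SE) is limma's moderated value, from 4 arrays against 2. A probe set was called a shared rise or a shared fall where the Benjamini-Hochberg adjusted p of this change, from limma over all 22746 probe sets, was under 0.05 and all 4 SUB1 arrays lay above, or all below, both WT arrays. The adjusted p concerns the mean of both lines, and the second line has only to lie outside the range of WT. Of the 22746 probe sets, 1318 (5.79%) were shared rises and 1608 (7.07%) shared falls. The mean of both lines passed the threshold for 3443 probe sets (15.1%), and 517 of these were left out because the arrays overlapped.

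Most shared changes were small. The median shared rise was 0.34 and the median shared fall -0.31. Only 69 rises and 20 falls averaged a doubling or a halving over both lines, and 15 rises and 3 falls reached that size in each line. A smaller change of at least 0.5 in each line was found for 137 rises and 91 falls, whereas 466 rises and 607 falls moved by less than 0.2 in 1 of the lines. Requiring an adjusted p under 0.05 in each line's own contrast left 385 rises and 339 falls. In a fit that took the 4 SUB1 arrays as 1 group, in which differences between the lines add to the spread, 95 rises and 68 falls were left. The first WT array and the first SUB1C array weighed most on the counts. Without the former 816 rises and 716 falls were called, and without the latter 796 and 886. The probe sets just inside and just outside the threshold had adjusted p of 0.04995 and 0.05011 and changes of 0.21 and -0.21.

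The lines often differed in the size of a shared change. SUB1A minus SUB1C, fitted as its own contrast, passed an adjusted p of 0.05 for 2742 of all probe sets (12.1%). Among the shared changes 878 of 2926 did so. Of the 450 rises with a difference between the lines, 374 were larger in SUB1A and 76 in SUB1C. Of the 428 such falls, 420 were larger in SUB1A and 8 in SUB1C. For the other shared changes the difference between the lines missed the threshold, which does not show that they were equal.

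**Figure D1:**
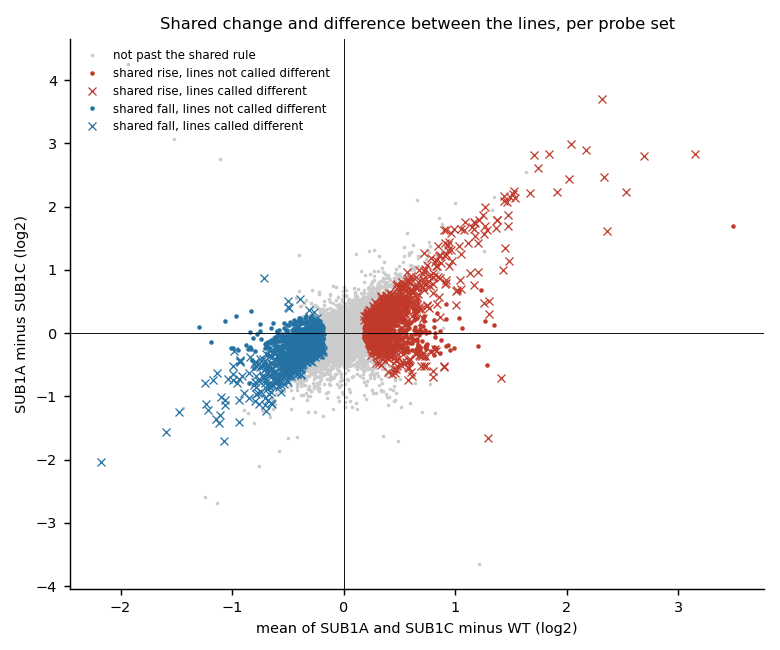
Each point is 1 probe set, with the mean of both SUB1 lines minus WT (log2) on the horizontal axis and SUB1A minus SUB1C (log2) on the vertical axis; crosses mark shared changes whose difference between lines passed the adjusted p of 0.05. The largest rises and falls lie mostly where SUB1A moved further from WT, while smaller shared changes cluster around no difference between the lines.

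Gene names were available for part of the array. A single gene was annotated to 13513 probe sets, several genes to 503 and none to 8730, so 1526 of the 2926 shared changes could be named. Taking the brightest probe set of each gene gave 13356 genes, of which 665 (4.98%) rose and 850 (6.36%) fell. The counts of gene groups below stand beside these 2 shares, and the median change of all genes was 0.01. The largest shared rises and falls by their smaller change in the 2 lines included probe sets with no gene listed. Probe set 249082_at read 5.61 and 5.41 in WT, 9.43 and 10.27 in SUB1A, and 9.18 and 7.11 in SUB1C. Probe set 246884_at read 10.13 and 9.30 in WT, 8.40 and 8.52 in SUB1A, and 8.47 and 8.28 in SUB1C.

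Genes for defence and wall-acting secreted enzymes were among the named rises. The chitinase gene CHI (AT2G43570; chitinases cut the chitin of fungal walls) read 8.37 and 8.24 in WT, 9.20 and 9.17 in SUB1A, and 9.14 and 9.16 in SUB1C. All 4 SUB1 arrays lay in a narrow band above WT, a change of 0.86 ± 0.06 (SE, adjusted p = 0.00012), or 1.82-fold. The locus AT2G43590, which lies close to CHI with 1 gene between them and was entered in the chitinase list by its ID, read 10.97 and 10.86 in WT, 12.25 and 12.39 in SUB1A, and 12.23 and 12.16 in SUB1C. It changed by 1.34 ± 0.06 (adjusted p = 3.2e-05), with no difference between the lines past the threshold (adjusted p = 0.33). ChiC, a further chitinase, rose by 1.32 in SUB1A and by 0.52 in SUB1C. The chitinase list itself held 1 measured gene, AT2G43590. CHI and ChiC were added by their symbols after values had been seen, so the count of 3 is a description and no test. The count of 3 held without each array in turn.

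A few genes of signal peptides and of defence regulators were called. RALFL27, a RALF-like secreted signal peptide of the kind that alters extracellular pH, read 6.599 and 6.47 in WT, 7.62 and 7.75 in SUB1A, and 7.53 and 7.36 in SUB1C. It rose by 1.03 ± 0.07 (adjusted p = 0.00014), to a similar level in all 4 SUB1 arrays. Of the 11 measured RALF-like genes, grouped after values had been seen, RALFL22 also rose, by 0.53 in SUB1A and 0.40 in SUB1C. RALFL34 fell, with changes of -0.38 and -0.21, and 8 did not pass. Among the 7 WRKY transcription factor genes WRKY53, a regulator of leaf senescence, and WRKY6 rose and none fell. WRKY53 read 5.36 and 5.83 in WT, 6.64 and 6.62 in SUB1A, and 5.90 and 5.90 in SUB1C, and its rise was larger in SUB1A (adjusted p of the difference 0.008). GRX480, a glutaredoxin of the salicylate response, rose by 0.61 and 0.17, as 1 of 3 measured genes of the salicylate list. In the ethylene and jasmonate defence list none of 13 rose. The defensin-like genes PDF2.1 and LCR69 fell, the former by 0.40 ± 0.08 (adjusted p = 0.012) and the latter by 0.22 ± 0.05 (adjusted p = 0.026). Both entered the list by a name prefix, and their response to ethylene or jasmonate was not tested. They lie in one stretch of the genome with 1 gene between them. Neither was called without the first or without the second WT array, and 1 of the 2 without the first SUB1A array or either SUB1C array, and neither WRKY gene passed in each line's own contrast.

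A further 8 of the 15 largest rises showed no difference between the lines past the threshold and carry only a locus name in the annotation used. AT5G54370 read 7.03 and 7.08 in WT, 8.19 and 8.11 in SUB1A, and 8.26 and 8.47 in SUB1C. AT1G14960 read 7.57 and 7.39 in WT, 8.60 and 8.56 in SUB1A, and 8.53 and 8.47 in SUB1C. Their changes were 1.202 ± 0.07 and 1.06 ± 0.07 (adjusted p = 7.7e-05 and 7.7e-05). AT4G25250, AT5G23830, AT3G01260 and AT5G62130 changed by 0.94, 0.82, 0.74 and 0.73. The other 2 of these loci, AT1G26390 and AT1G26420, varied more between arrays. AT1G26390 read 6.07 and 6.55 in WT, 6.78 and 7.91 in SUB1A, and 8.01 and 7.70 in SUB1C, so the groups were close at their edges. AT1G05700 read 7.45 and 7.22 in WT, 9.27 and 9.24 in SUB1A, and 8.27 and 8.26 in SUB1C, a rise of 1.93 in SUB1A and 0.93 in SUB1C, and the lines differed (adjusted p = 0.00025).

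**Figure D2:**
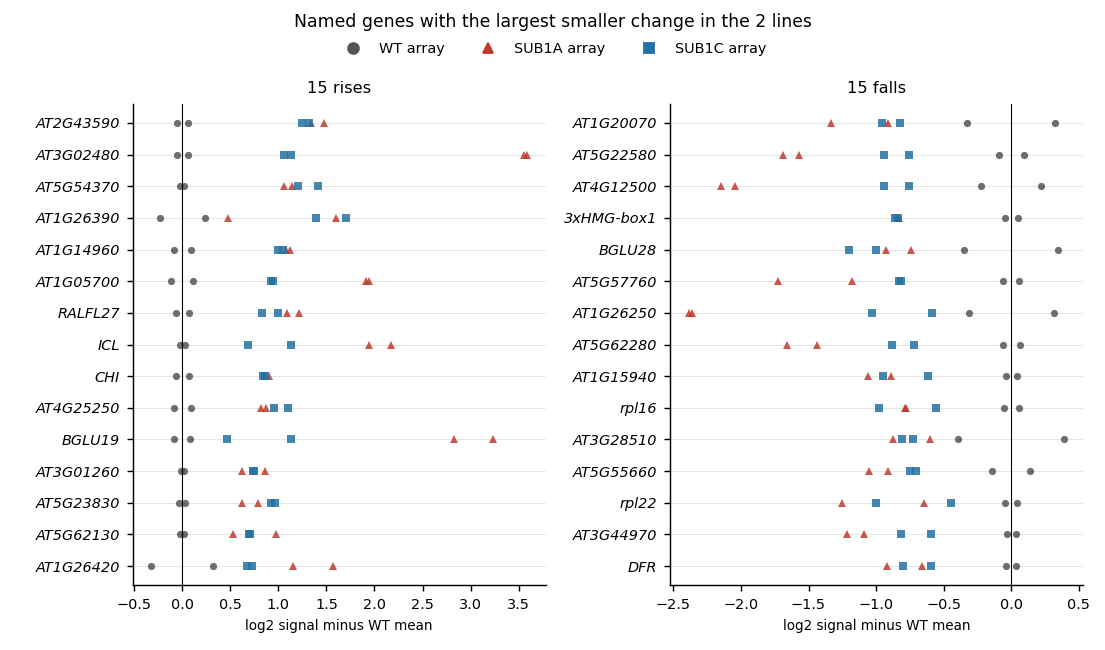
The 15 rises and 15 falls with the largest smaller change in the 2 lines, by gene (vertical axis), as log2 signal minus the WT mean in each of the 6 arrays (horizontal axis). Under the rule of the call no SUB1 array overlaps a WT array. CHI and 3xHMG-box1 have all 4 SUB1 arrays together, and AT3G02480 and BGLU19 lie further out in SUB1A.

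Several genes of the late embryogenesis and seed storage list, the seed list below, rose far more in SUB1A than in SUB1C. Late embryogenesis abundant (LEA) proteins accumulate in maturing seeds and protect cells during drying. Of 11 measured genes of the seed list 6 rose and none fell, with a median change of 0.65, 1.097 in SUB1A and 0.25 in SUB1C. AT3G02480 read 6.81 and 6.70 in WT, 10.34 and 10.31 in SUB1A, and 7.81 and 7.89 in SUB1C. This was a 11.9-fold rise in SUB1A and a 2.14-fold rise in SUB1C, and the lines differed (adjusted p = 1.2e-06). The LEA-list gene M17 read 4.00 and 4.30 in WT, 8.18 and 8.43 in SUB1A, and 4.65 and 4.56 in SUB1C. Its WT signal was near the lowest values of the arrays, where a change can be understated, so its size is uncertain. In SUB1C the same gene stood only 0.46 above WT. LEA18 rose by 2.62 in SUB1A and 0.41 in SUB1C, and AT3G15670 by 3.04 and 0.44. M10, the oleosin gene OLEO3, the storage-type gene PAP85 and 2 further LEA genes did not pass, with changes of -0.09, -0.02 and 0.10 for the former 3. The seed marker list rested on M17 alone, the one marker of 15 that was measured. The same 6 genes were called without each array in turn, with 1 more without the first SUB1A array, and 1 of the 6, AT3G02480, passed in each line's own contrast.

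Isocitrate lyase, ICL, opens the glyoxylate cycle through which seedlings turn stored oil into sugar. ICL read 6.32 and 6.38 in WT, 8.29 and 8.52 in SUB1A, and 7.48 and 7.04 in SUB1C. Its change was 1.48 ± 0.12 (adjusted p = 0.00025), 4.16-fold in SUB1A and 1.88-fold in SUB1C. Other enzymes of citrate and isocitrate use and of respiration were then collected by name, after values had been seen. With ICL, 10 of 23 rose and none fell, with a median change of 0.16. The cytosolic isocitrate dehydrogenase gene cICDH rose by 0.29 ± 0.06 (adjusted p = 0.016). The NAD-dependent isocitrate dehydrogenase genes IDH-V and IDH-VI rose by 0.28 and 0.25, and ACLA-3, a subunit of ATP citrate lyase, by 0.30. NDB2, an alternative NADH dehydrogenase, rose by 0.32. All but ICL rose by less than 0.5 in each line. The count of 10 was weak: it was 2 without the first WT or the first SUB1C array, 5 without the second WT array and 6 without any 1 of the other 3, and 1 gene passed in each line's own contrast. Of 16 symbols that name mitochondrial genes, grouped after values had been seen, 5 rose and none fell. The largest rise was that of cox2, a cytochrome oxidase subunit, at 0.48 ± 0.07 (adjusted p = 0.0031). That count was 2 without the first WT or the second SUB1C array and 1 without the second WT array. With probe sets ending in s_at or x_at left out, 3 of the 5 mitochondrial rises were called. The labels' kit primes from poly(A), which captures organelle transcripts poorly, and the part of capture in these values was not tested.

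Most measured starch genes fell. Starch is built in the plastid from ADP-glucose and taken apart again at night. Of the 8 measured genes of the starch and sugar list 5 fell and none rose, with a median change of -0.32. APL4, a large subunit of ADP-glucose pyrophosphorylase, read 6.04 and 6.02 in WT, 5.35 and 5.58 in SUB1A, and 5.39 and 5.58 in SUB1C. The 4 SUB1 arrays lay below WT by a similar amount, a fall of 0.55 ± 0.08 (adjusted p = 0.0034). APL3, another large subunit, read 7.11 and 6.51 in WT, 5.54 and 5.92 in SUB1A, and 6.33 and 6.25 in SUB1C. The spread of WT was wide there, and the fall of 0.80 ± 0.16 had an adjusted p of 0.013. SBE2.2, a branching enzyme, fell by 0.35 ± 0.06 (adjusted p = 0.009). DPE1, which rearranges the chains released in starch breakdown, read 9.96 and 9.91 in WT, 9.54 and 9.48 in SUB1A, and 9.57 and 9.60 in SUB1C. AT5G26570, the phosphoglucan water dikinase PWD, fell by 0.30. No difference between the lines passed the threshold for APL3, APL4 or DPE1 (adjusted p = 0.092, 0.92 and 0.48). QQS, a regulator of starch content, did not move alike, with changes of -0.61 in SUB1A and 3.04 in SUB1C. In each line's own contrast 3 starch genes passed, and without the first WT array the count of falls was 2.

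SWEET proteins export sugars across membranes. In the family of 16 measured SWEET genes, collected after values had been seen, SWEET1, SWEET11 and SWEET13 fell and none rose. SWEET13 read 7.97 and 7.47 in WT, 6.27 and 6.43 in SUB1A, and 7.27 and 7.32 in SUB1C. SWEET1 read 8.61 and 8.62 in WT, 7.68 and 7.52 in SUB1A, and 8.16 and 8.02 in SUB1C. SWEET11 fell by 0.13 in SUB1A and 0.49 in SUB1C. The other 13 did not pass, and the median of the family was near 0. In each line's own contrast 1 of the 3 passed.

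Most measured genes of anthocyanin synthesis fell. Anthocyanins are the red and purple flavonoids of stressed or sugar-fed seedlings. Of 8 measured genes of the flavonoid list 5 fell and BAN rose, with a median change of -0.39. DFR, dihydroflavonol reductase, which commits flavonoids to anthocyanins, read 6.92 and 6.85 in WT, 6.23 and 5.97 in SUB1A, and 6.29 and 6.09 in SUB1C. It fell by 0.74 ± 0.09 (adjusted p = 0.0013), with no difference between the lines past the threshold (adjusted p = 0.63). UF3GT, which adds xylose to anthocyanins, read 7.65 and 7.85 in WT, 7.21 and 7.01 in SUB1A, and 7.25 and 7.11 in SUB1C, a fall of 0.61 ± 0.08 (adjusted p = 0.0027). AT4G14090, entered in the list by its ID, fell by 0.61 ± 0.07 (adjusted p = 0.0015). The chalcone isomerase-like gene CHIL fell by 0.78 in SUB1A and 0.27 in SUB1C, and the flavonoid glucosyltransferase gene UGT78D2 by 0.37 and 0.14. AT5MAT and UGT78D1 did not pass, at -0.23 and -0.15. BAN, an anthocyanidin reductase of the seed coat, read 5.41 and 5.47 in WT, 5.85 and 5.84 in SUB1A, and 5.70 and 5.77 in SUB1C, a low signal in every array. The count of 5 falls was within 1.5 times without each array in turn, and 3 genes passed in each line's own contrast.

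**Figure D3:**
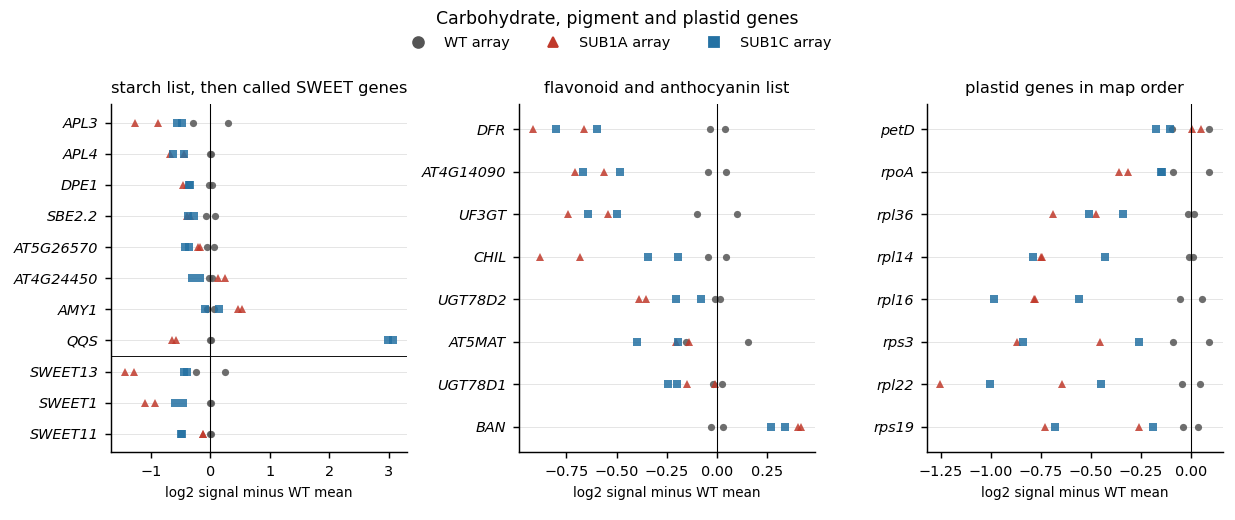
Log2 signal minus the WT mean in each of the 6 arrays (horizontal axis) for the measured starch genes and the 3 called SWEET genes, the measured flavonoid genes, and plastid genes in their map order from petD to rps19 (vertical axes). Both lines lie below WT for APL4, DPE1, DFR and UF3GT, and QQS lies apart in SUB1C.

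Many genes of chromosome segregation, cell plate formation and DNA replication fell by small amounts. This group of 27 genes was put together after values had been seen, so its count of 15 falls and no rise is a description and no test; its median change was -0.23. The 2 HMG-box genes whose proteins bind condensed chromosomes moved most. 3xHMG-box1 read 6.90 and 7.00 in WT, 6.12 and 6.11 in SUB1A, and 6.12 and 6.09 in SUB1C. The 4 SUB1 arrays agreed to within 0.03, a fall of 0.84 ± 0.05 (adjusted p = 0.0001), or 1.79-fold. 3xHMG-box2 read 9.93 and 9.99 in WT, 9.19 and 9.14 in SUB1A, and 9.26 and 9.43 in SUB1C. KINESIN-12B, a motor of the plant cell plate, fell by 0.44 ± 0.08 (adjusted p = 0.0086), and ICU2, the catalytic subunit of DNA polymerase alpha, by 0.39 ± 0.06 (adjusted p = 0.0045). BUBR1, of the spindle checkpoint, and TOPII, topoisomerase II, fell by 0.33 and 0.32. The Aurora kinase genes AUR1, AUR2 and AUR3 fell by 0.21, 0.27 and 0.30. The histone gene HTB2 fell by 0.30, while HTB1, HTB4, HTB11 and the centromere histone HTR12 did not pass. In the cell cycle and histone list chosen by symbol, HTB2 was the one call among 5 genes. The count of 15 fell to 6 without the second WT array and to 9 without the first SUB1A or the first SUB1C array, and 6 genes passed in each line's own contrast.

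The NETWORKED family links actin filaments to membranes. Of its 10 measured genes, grouped after values had been seen, NET1A, NET1B, NET1D and NET3C fell and none rose. NET1A read 6.83 and 6.83 in WT, 6.06 and 6.39 in SUB1A, and 6.20 and 6.48 in SUB1C. NET1A fell by 0.55 ± 0.10 (adjusted p = 0.011). TUB6 and TUB7 were the 2 falls among 7 tubulin genes, also grouped after values had been seen, at -0.26 and -0.24. Of the 4 NETWORKED falls 1 was called without the first WT array and 2 passed in each line's own contrast. Neither tubulin gene was called without either WT array, the first SUB1A array or the first SUB1C array.

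Several stomatal and leaf regulators fell. SPCH, MUTE and FMA are the transcription factors that take a cell through entry, commitment and guard cell fate in the stomatal lineage, and STOMAGEN is a secreted peptide that promotes that lineage. SPCH read 7.62 and 7.67 in WT, 6.98 and 7.11 in SUB1A, and 7.35 and 7.28 in SUB1C. FMA read 7.96 and 7.82 in WT, 7.33 and 7.23 in SUB1A, and 7.67 and 7.61 in SUB1C. SPCH and FMA fell by 0.47 ± 0.06 and 0.43 ± 0.06 (adjusted p = 0.0018 and 0.0034). STOMAGEN fell by 0.43 in SUB1A and 0.13 in SUB1C. AT4G14480, the kinase BLUS1 of blue-light stomatal opening, fell by 0.50 ± 0.07 (adjusted p = 0.0032). MUTE, at a low signal of 5.36 in WT, did not pass (-0.09). The difference between the lines passed the threshold for the 4 called genes. These 5 genes and the 13 leaf genes that follow were grouped after values had been seen. In each line's own contrast 1 of the 4 passed.

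Of the 13 leaf blade and trichome regulators 8 fell and NGA4 rose. NGA1, of a family that shapes leaf margins, read 8.35 and 8.22 in WT, 7.31 and 7.55 in SUB1A, and 7.99 and 8.12 in SUB1C. TCP15, a growth regulator, fell by 0.86 in SUB1A and 0.20 in SUB1C. YAB5, of the YABBY family that sets the lower side of the leaf, fell by 0.65 and 0.10. JAG, which drives blade growth, fell by 0.35 and 0.29, and TRY, an inhibitor of trichome fate, by 0.29 and 0.19. NGA4 rose by 0.26 and 0.20. NGA2 and NGA3 moved in SUB1A (-0.63 and 0.74) with SUB1C at 0.02 and 0.02, and so were not shared. The count of 8 falls was 4 without the first WT array, 3 without the first SUB1C array and 5 without any 1 of the SUB1A arrays or the second SUB1C array. No leaf regulator fell past the threshold in each line's own contrast.

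**Figure D4:**
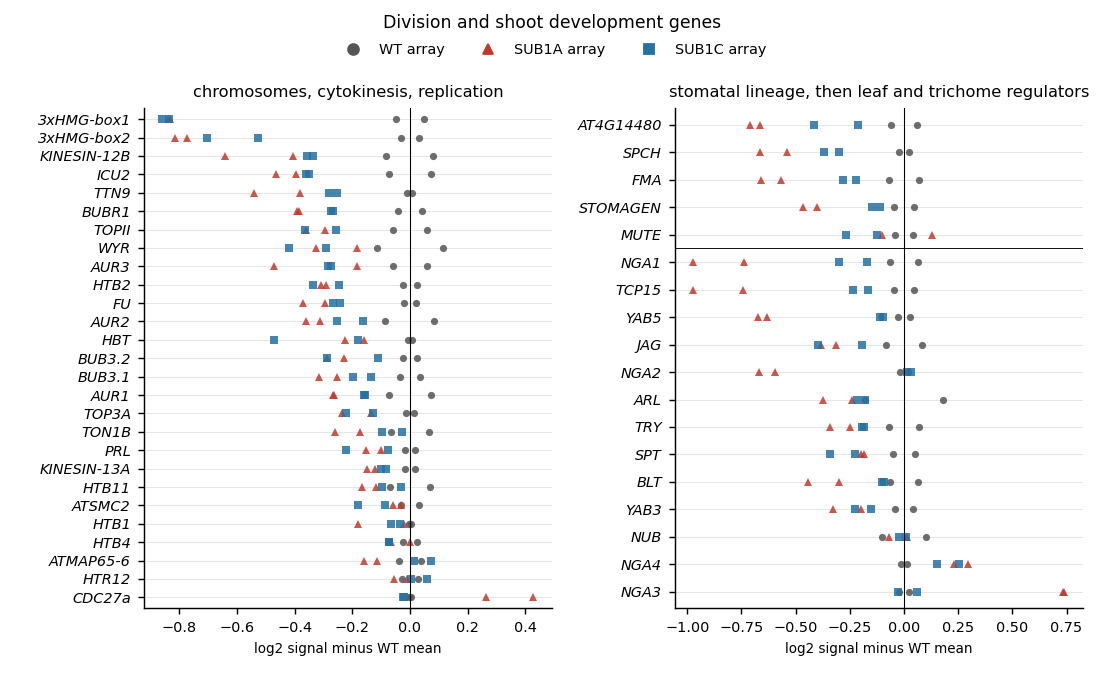
Log2 signal minus the WT mean in each of the 6 arrays (horizontal axis) for 27 genes of chromosome segregation, cytokinesis and replication (left) and for 5 stomatal and 13 leaf regulators (right), by gene (vertical axes). The falls of 3xHMG-box1 and 3xHMG-box2 are the largest of the left group, and SPCH, FMA, NGA1 and TCP15 are lower in SUB1A than in SUB1C.

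The median of the plastid genes lay slightly below WT in both lines, and further below in SUB1C. Of 69 genes of the plastid genome 65 had a mean change below 0, 7 fell and none rose. Their median was -0.17, with -0.07 in SUB1A and -0.30 in SUB1C. All 4 SUB1 arrays lay below both WT arrays for 17 of the 69, and for 15% of all genes. Plastid transcripts too are captured poorly by priming from poly(A), and the part of capture in these values was not tested. The falls lay mostly in one run of neighbouring ribosomal genes. The genes rpl36, rpl14, rpl16, rps3 and rpl22 all fell, as did rpoA, a subunit of the plastid RNA polymerase near the start of the run. The gene rpl16 read 11.40 and 11.29 in WT, 10.56 and 10.57 in SUB1A, and 10.36 and 10.79 in SUB1C. Its fall was 0.78 ± 0.11 (adjusted p = 0.0025). The gene rpl14 fell by 0.68 and rpl22 by 0.84. Next to them, rps19 missed the threshold at -0.46 (adjusted p = 0.08) and petD stood at -0.05. In rps3, rpl22 and rps19 the first array of each SUB1 line was lower than the second by between 0.41 and 0.61. The count of 7 was 4 without the first WT or the first SUB1C array and 12 without the second SUB1C array, and 3 of the 7 were called without the second WT array; 3 genes passed in each line's own contrast. Of 15 photosystem II genes of the plastid, psb, all had a mean below WT by at most 0.43, and none passed.

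Some nuclear genes for plastid proteins also fell. Of 6 measured genes of the nuclear photosynthesis list LHCB4.2 and LHCB4.3, light-harvesting antenna proteins, fell. LHCB4.3 read 9.04 and 8.82 in WT, 8.58 and 8.44 in SUB1A, and 8.64 and 8.36 in SUB1C, a fall of 0.43 ± 0.10 (adjusted p = 0.021). LHCB4.2 fell by 0.24 ± 0.06 (adjusted p = 0.034). In a set of 26 thylakoid, pigment and plastid division genes collected after values had been seen, 12 fell and none rose, with a median of -0.19. NdhS and NdhN, subunits of the plastid NDH complex, fell by 0.39 and 0.41, and PORB, which makes chlorophyllide in the light, by 0.23. This count was fragile, at 1 without the first WT array, 7 without the first SUB1A array, 4 without the first SUB1C array and 6 without the second, and none of the 12 passed in each line's own contrast. Neither antenna gene was called without the first WT array, and 1 of the 2 without any 1 SUB1 array.

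Few tissue markers were measured. The root list held 17 names, with some genes entered by symbol and again by locus, and PYK10, EXPA7 and EXPA18 were measured. These 3 root markers summed on the linear scale to between 17370 and 17685 in WT, 18637 and 19326 in SUB1A, and 18510 and 19291 in SUB1C. The shoot markers LHCB4.1, RCA and LHCB4.2, 3 of 20, summed to between 72067 and 73064 in WT, 65191 and 67909 in SUB1A, and 70650 and 71545 in SUB1C. PYK10 carried most of the root sum and changed by 0.10 (adjusted p = 0.26), while EXPA7 and EXPA18 rose, by 0.54 and 0.52. Of the shoot markers LHCB4.2 fell by 0.24, and LHCB4.1 and RCA did not pass, both at -0.02. PYK10, LHCB4.1 and RCA read at least 14.05 in every array, where the highest value of an array lay between 14.81 and 14.95, and so bright a signal can understate a change. The flower markers AGL65 and AGL66 did not pass. The part of tissue makeup in the falls of shoot genes was not tested.

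Wall-loosening enzymes changed in both directions. Expansins loosen the wall so that cells can lengthen. Of 19 measured expansin genes 3 rose and 4 fell, with a median of 0.02. EXPA7 and EXPA18, whose expansins act in root hairs, rose more in SUB1C than in SUB1A. EXPA7 read 7.59 and 7.42 in WT, 7.80 and 7.79 in SUB1A, and 8.36 and 8.21 in SUB1C. Its change was 0.54 ± 0.07 (adjusted p = 0.0021), and the lines differed (adjusted p = 0.0067). EXLA1, an expansin-like gene, rose by 0.52 in SUB1A and 0.78 in SUB1C. EXPA8 read 11.38 and 11.18 in WT, 9.41 and 9.49 in SUB1A, and 10.86 and 10.76 in SUB1C. It fell by 1.83 in SUB1A and 0.47 in SUB1C, and EXPB3 by 1.01 and 0.15. Of the 4 falls 2 were called without the first WT array and 1 passed in each line's own contrast.

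Xyloglucan endotransglucosylases cut and rejoin the tethers between cellulose fibres. Of 10 measured genes 4 rose and 2 fell. The adjacent genes XTH18 and XTH19 rose by nearly the same amount in both lines. XTH19 read 8.63 and 8.68 in WT, 9.25 and 9.33 in SUB1A, and 9.29 and 9.31 in SUB1C, a change of 0.64 ± 0.05 (adjusted p = 0.00034). XTH18 changed by 0.63 ± 0.06 (adjusted p = 0.00054). Close copies of this kind can share probes, and the 2 values may not be independent. Without the first WT array 2 of the 4 xyloglucan rises and 1 of the 2 falls were called. XTH32 fell by 0.94 in SUB1A and 0.27 in SUB1C. The peroxidase genes AT5G66390 and AT2G41480 were the 2 rises among 6 class III peroxidases. AT5G66390 read 9.32 and 9.29 in WT, 9.99 and 9.94 in SUB1A, and 10.01 and 9.85 in SUB1C, a change of 0.65 ± 0.06 (adjusted p = 0.00053).

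Enzymes of secondary metabolism were called in both directions. UDP-glycosyltransferases attach sugars to small molecules. Of 51 measured genes 10 rose and 4 fell. UGT71C1 read 7.59 and 7.48 in WT, 7.97 and 8.20 in SUB1A, and 8.49 and 8.41 in SUB1C, a change of 0.73 ± 0.08 (adjusted p = 0.00075), larger in SUB1C. UGT71C3 rose by 2.26 in SUB1A and 0.27 in SUB1C. UGT72B3 fell by 0.54 ± 0.06 (adjusted p = 0.00089). Of 22 beta-glucosidase genes 3 rose and 1 fell. BGLU19 read 6.25 and 6.09 in WT, 9.40 and 8.99 in SUB1A, and 7.30 and 6.63 in SUB1C. BGLU28 read 6.88 and 6.18 in WT, 5.61 and 5.79 in SUB1A, and 5.53 and 5.33 in SUB1C, with a wide gap between the WT arrays. Of 14 glutathione transferase genes, which detoxify reactive compounds, 3 rose and GSTU16 fell, by 0.43 ± 0.07 (adjusted p = 0.0058). GSTU28 rose by 0.21 in SUB1A and 0.94 in SUB1C. Of 23 cytochrome P450 genes 2 rose and 3 fell, among the latter the neighbours CYP71B35 and CYP71B36, with falls of 0.57 and 0.41. Without any 1 array 1 of the 2 P450 rises was called, and without either WT array or the second SUB1C array 2 of the 4 UDP-glycosyltransferase falls. Of the 3 glutathione transferase rises 1 was called without the first WT array. In each line's own contrast 2 of the 10 UDP-glycosyltransferase rises and 2 of the 4 falls passed. None of the beta-glucosidase, glutathione transferase or P450 rises did, and 2 of the 3 P450 falls did. BCAT4, which starts methionine-derived glucosinolate synthesis, fell by 1.02 in SUB1A and 0.49 in SUB1C, and the glucosinolate transporter gene GTR2 rose by 0.67 and 0.21.

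Hormone genes gave few shared calls, and some hormone lists were barely measured. The abscisic acid list had no measured gene. The brassinosteroid and jasmonate signalling lists had 1 each, which was not called. Of 6 measured gibberellin genes the receptor gene GID1B and SLY1, the F-box protein that removes DELLA repressors, rose. SLY1 read 8.92 and 9.03 in WT, 9.46 and 9.51 in SUB1A, and 9.23 and 9.05 in SUB1C. SLY1 changed by 0.33 ± 0.07 (adjusted p = 0.013) and GID1B by 0.25 ± 0.06 (adjusted p = 0.025), both more in SUB1A. In the limma contrast of SUB1C alone neither passed (adjusted p = 0.29 and 0.39). Neither was called without the first WT array, and 1 of the 2 without the second WT, the second SUB1A or either SUB1C array. RR16, a cytokinin response regulator, fell by 0.55 ± 0.09 (adjusted p = 0.0048), as 1 of 6 cytokinin genes. None of 16 auxin response genes and none of 22 bZIP genes passed in either direction, with medians of -0.04 and 0.04. Of the auxin genes 13 had a change below 0, the lowest at -0.66. At an unadjusted p under 0.05 the same lists held 2 auxin and 3 bZIP genes in limma's test. None of the 3 measured genes of the core hypoxia list and neither of 2 ethylene genes passed, with 1 and 0 at an unadjusted p under 0.05. COR15B, a cold-regulated plastid protein, was the one call among 5 cold and dehydration genes and fell by 1.80 in SUB1A and 0.67 in SUB1C. The flowering genes LD and SNZ fell by 0.30 ± 0.06 (adjusted p = 0.013) and 0.32 ± 0.08 (adjusted p = 0.036). Neither flowering gene was called without the second WT array, and 1 of the 2 without any 1 of the other arrays.

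Of 12 measured genes of the list for nitrate, sulfate and phosphate transport and assimilation 2 fell, GTR2 rose and 9 did not pass, with a median change of 0.08. AT2G26690 (NPF6.2) read 10.09 and 9.98 in WT, 8.85 and 8.98 in SUB1A, and 9.86 and 9.85 in SUB1C. It fell by 1.12 in SUB1A and 0.18 in SUB1C, with the lines different (adjusted p = 0.00014). AT1G68570 (NPF3.1) fell by 0.24 ± 0.06 (adjusted p = 0.022). Of these 2 falls 1 was called without either WT array, the first SUB1A array or either SUB1C array.

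The remaining largest falls carry only a locus name in the annotation used. AT5G22580 read 10.87 and 10.68 in WT, 9.20 and 9.08 in SUB1A, and 9.83 and 10.01 in SUB1C. AT4G12500 read 10.71 and 11.15 in WT, 8.88 and 8.79 in SUB1A, and 9.99 and 10.18 in SUB1C. AT1G26250 read 7.98 and 7.35 in WT, 5.30 and 5.28 in SUB1A, and 6.64 and 7.08 in SUB1C. In all 3 the SUB1A arrays lay furthest below WT, with the SUB1C arrays between. AT1G20070 fell by 1.01 ± 0.17 (adjusted p = 0.0073), AT5G57760 by 1.14, AT5G62280 by 1.17 and AT3G44970 by 0.93. AT1G15940 and AT5G55660 fell by 0.88 and 0.86, with no difference between the lines past the threshold. AT3G28510 read 5.77 and 4.99 in WT, 4.51 and 4.78 in SUB1A, and 4.58 and 4.66 in SUB1C, where 1 WT array lay close to the SUB1 arrays.

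**Figure D5:**
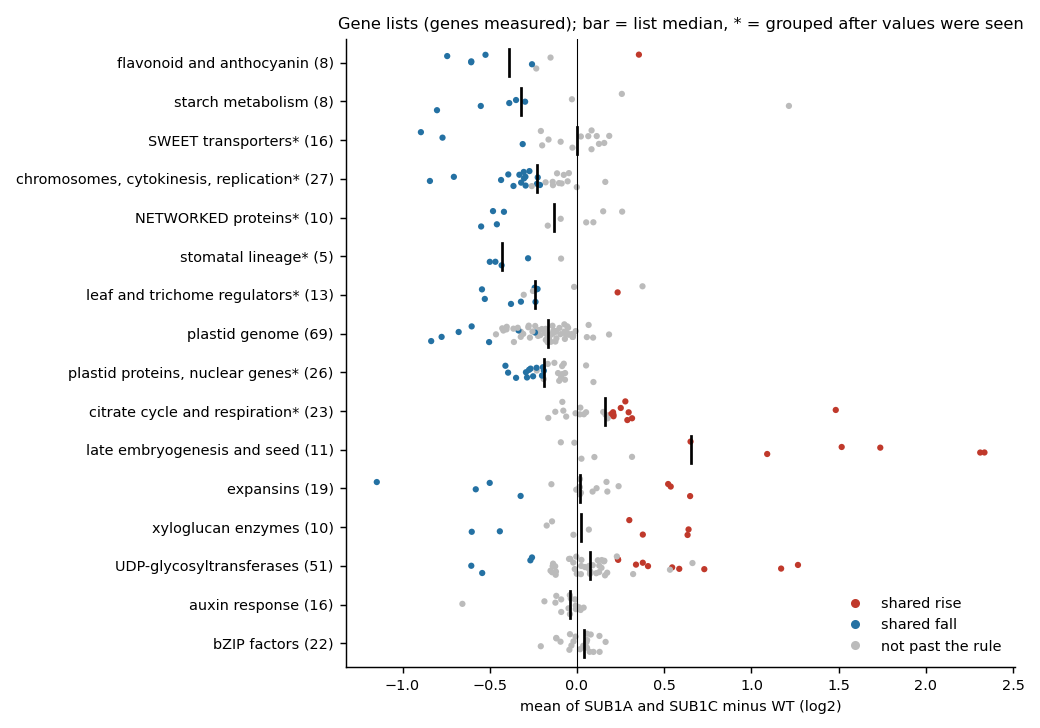
Mean of both SUB1 lines minus WT (log2, horizontal axis) for the measured genes of 16 groups (vertical axis), with the group median as a bar and calls in colour. The medians of the flavonoid, starch, stomatal and plastid groups lie left of 0, with the highest starch gene at 1.21. Genes of the late embryogenesis and seed list spread to the right. Groups marked with a star, the stomatal one among them, were put together after values had been seen, so their position is a description and no test. Auxin and bZIP genes have medians near 0 and no call, with the lowest auxin gene at -0.66.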

How the data were processed

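Whole seedlings of WT and of the SUB1A and SUB1C lines were hybridised to Affymetrix ATH1 arrays, from 100 ng of RNA each, 2 arrays per group. The deposited values are log2 expression values made by the authors with RMA, per the submitters' processing notes; its version and the genome build are not given in the sources used here, and neither is the depth of an array, so the number of arrays limits the precision. The labels differ on the strength of the growth medium. Of 22810 probe sets, 64 Affymetrix controls were left out, which left 22746.

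The 3 group means were fitted with limma 3.58.1 in R 4.3.3 (lmFit, eBayes; 3 residual and 5.37 prior degrees of freedom), and the mean of both lines minus WT and SUB1A minus SUB1C were tested (two-sided), with p-values adjusted by Benjamini-Hochberg across the array. The fit was tested on simulated data in which both lines changed alike, and so not for changes that differ between the lines. Arrays of one group correlated at 0.998 to 0.999 and arrays of different groups at 0.989 to 0.996. Array medians lay between 7.60 and 7.63.

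Probe sets were named from the platform annotation, and 13286 of 13356 genes matched RefSeq genes (assembly TAIR10.1) by ID. Named genes were the 15 rises and 15 falls with the largest smaller change in the 2 lines, and up to 3 per list with at least 2 calls, 69 in all; other list members are given as values. A further 14 groups were formed after values were seen. Members and lists were chosen with earlier results of these data known. Of 56 lists, 8 had no measured gene, and wrong symbol matches were removed. Alternatives were a replicate block, other scalings, filters, moderations, weights and thresholds, probe set averaging, and leaving out each array.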

Additional observations from a re-analysis of the deposited data

Results flagged for a closer look

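The genes below changed on the same side of WT in both lines, yet SUB1A minus SUB1C passed an adjusted p of 0.05 in limma. The values are SUB1A minus SUB1C on the log2 scale, and no explanation was tested.

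Several genes of the late embryogenesis and seed storage list were among the rises that were larger in SUB1A. The difference was 3.70 for M17, 2.603 for AT3G15670, 2.47 for AT3G02480 and 2.21 for LEA18. It was 2.23 for BGLU19, 1.99 for UGT71C3, 1.15 for ICL, 0.99 for AT1G05700, 0.85 for AT2G41480 and 0.80 for ChiC. The regulators WRKY53 and WRKY6 differed by 0.73 and 0.67. Smaller differences were found for CYP71B23 (0.60), GTR2 (0.46), GRX480 (0.43), SLY1 (0.34), ACLA-3 (0.29) and GID1B (0.27).

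Rises that were larger in SUB1C differed by -0.73 for GSTU28, -0.49 for EXPA7, -0.46 for EXPA18 and -0.36 for UGT71C1. SWEET11 fell further in SUB1C, with a difference of 0.36.

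Most falls with a difference went further in SUB1A. The value was -1.57 for AT1G26250, -1.36 for EXPA8, -1.25 for AT4G12500, -1.13 for COR15B, -0.94 for AT2G26690 and SWEET13, -0.85 for EXPB3 and -0.78 for AT5G22580. It was -0.75 for AT5G62280, -0.67 for XTH32, -0.66 for TCP15, -0.63 for AT5G57760, -0.62 for NGA1, -0.55 for YAB5, -0.53 for BCAT4 and -0.51 for CHIL. SWEET1 differed by -0.49 and AT3G44970 by -0.45. The stomatal genes AT4G14480, FMA, STOMAGEN and SPCH differed by -0.38, -0.36, -0.30 and -0.27.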

How the results depend on the processing

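With 2 arrays per group, the choice of model and threshold set how many genes were called. With the 4 SUB1 arrays as 1 group, 95 shared rises, 68 shared falls, 4 rises and 7 falls of listed genes and 21 of 69 named genes were called, and the mean of both lines passed for 95 higher and 68 lower probe sets; differences between the lines add to the spread in that fit. At an adjusted p of 0.01 there were 613 shared rises, 642 shared falls, 697 higher and 692 lower probe sets for the mean of both lines, 27 falls of listed genes and 427 shared changes with a difference between the lines. With each line's own contrast past 0.05, 385 rises and 339 falls remained of the shared kind and the same numbers were called higher and lower, with 12 rises and 19 falls of listed genes, 43 named genes and 184 differences between the lines. Leaving out each array in turn gave 796 to 1135 shared rises and 716 to 1346 shared falls, 870 to 1299 higher and 747 to 1474 lower probe sets, and 431 to 1229 differences between the lines. An array left out leaves a group with 1 array, which is assumed to vary like the others. Over all probe sets, same-numbered arrays deviated from their group means with correlations of -0.01, 0.04 and 0.02. In rps3, rpl22 and rps19 the first array of both SUB1 lines was the lower one. Whether same-numbered arrays share more than a number was not tested. With the replicate block, 1235 rises and 1517 falls were called, along with all 69 named genes. In that fit P450 rises went from 2 to 1, plastid falls from 7 to 11 and falls of plastid ribosomal genes from 5 to 9. Median centring shifted the median change by 0.02 and gave 1528 rises and 1370 falls. No named gene changed direction under any of these. SNZ lost its call under 10 alternatives and LCR69 under 9. Signals near the lowest values of the arrays can understate changes, which was not tested.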
